A study of Mus musculus with 10 samples.

Results

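The position of H3K4me2 peaks from formalin-fixed, paraffin-embedded (FFPE) mouse liver was set against domains of H3K27Ac from the same kind of tissue. The members were the 11616 H3K4me2 peaks on chromosomes 1 to 19, of 11751 in that library's list and of 344963 peaks in the 9 lists of the series. They came from the library FiT-seq_H3K4me2, in which proteinase K was used to free chromatin from sections. The domains came from both libraries labelled FiTAc-seq_65°C_5min, replicate 1 and replicate 2, in which sections were homogenized with heat at 65 °C in detergent buffer and sonicated for 5 min. A domain was the stretch left after the H3K27Ac peaks of 1 library were merged at gaps of up to 500 bp. All groups were full sections of normal mouse liver with no treatment named. A fresh frozen liver library, FF_H3K27Ac, crosslinked with formaldehyde before lysis and sonication, gave a list of H3K27Ac from tissue that the series calls matched. The labels gave no age, strain or sex, and nothing said whether libraries came from separate animals or blocks, so the spread between the replicates may be technical. The labelled tissue was checked against no marker genes, because the lists hold regions only.

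H3K4me2 and H3K27Ac are modifications of the tail of histone H3. H3K4me2 is laid down by lysine methyltransferases at promoters and at enhancers, including some that are poised and not active. H3K27Ac is laid down by the acetyltransferases p300 and CBP at nucleosomes beside active promoters and enhancers, and wide stretches of it mark the clustered enhancers of genes that define a cell type. At an active element both marks flank a stretch depleted of nucleosomes.

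The mark and the protocol differed together. H3K4me2 was measured with FiT-seq and the domains with FiTAc-seq, and the antibodies differed, so an effect of the mark and an effect of the protocol cannot be told apart in any value below. The FiT-seq list of H3K27Ac held 112 peaks on chromosomes 1 to 19 and could not serve as a domain list of the same protocol. H3K4me2 had 1 library and no replicate. Each value is given for both H3K27Ac replicates, and SD is over those 2. Read depth is unknown, and no p-value was computed, since peaks of a library are not replicates. Coordinates are on the mouse build mm9. Gene annotation and sequence of that build were not used here, so regions carry no gene names and no sequences are shown.

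H3K4me2 peaks were short and H3K27Ac domains long. The H3K4me2 peaks had a median width of 242 bp and covered 3.27 Mb. Replicate 1 held 34763 domains with a median width of 854 bp and 48.9 Mb in all. Replicate 2 held 32003 domains with a median of 866 bp and 44.8 Mb. The widest domains spanned 49796 and 50137 bp. Each peak carries the authors' own score, taken here as minus the log10 of a q-value (−log10 q), which ran from 2.04 to 315 over the H3K4me2 peaks with a median of 5.52.

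Most H3K4me2 peaks lay wholly inside an H3K27Ac domain. In replicate 1, 6943 of the 11616 peaks (59.8%, Wilson 95% interval 58.9 to 60.7%) were inside. In replicate 2, 6447 (55.5%, 54.6 to 56.4%) were inside, which made 57.6% ± 3.02 (SD, n = 2). A peak was placed at an edge when it shared at least 1 bp with a domain and reached beyond it. Edge peaks numbered 1985 (17.1%) and 2105 (18.1%), or 17.6% ± 0.73 (SD, n = 2). Outside every domain lay 2688 peaks (23.1%) and 3064 peaks (26.4%), or 24.8% ± 2.29 (SD, n = 2). Intervals here cover counting error only.

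The size of the edge class depended on its definition. It rose to 30.2% when a midpoint within 250 bp of a boundary counted as edge, and fell to 11.3% when a peak with less than 50% of its bases in the domain counted as outside. Inside was the largest class on each of the 19 chromosomes. The inside share ran from 52.8 to 66.4% over the 19 chromosomes in replicate 1 and from 48.4 to 61.1% in replicate 2.

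The class of a peak was mostly shared between the replicates. In both, 5925 peaks were inside, 1067 at an edge and 2394 outside, so that 9386 peaks (80.8%) had 1 class. Of the rest, 819 were inside a replicate 1 domain and at an edge of a replicate 2 domain, and 447 were the reverse. A full switch between inside and outside was seen for 199 peaks in that direction and 75 in the other.

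Edge peaks had the largest median width and the largest median −log10 q of the 3 classes. Their median width was 323 bp in replicate 1 and 313 bp in replicate 2, against 233 and 231 bp for inside peaks and 224 and 229 bp for outside peaks. A wide peak has more bases with which to cross a boundary, and the part of width in the class was not tested. The median −log10 q of edge peaks was 6.14 and 6.15. It was 5.31 and 5.28 for inside peaks and 5.66 and 5.62 for outside peaks. Edge peaks lay more within the domain than beyond it, with a median of 189 bp within and 108 bp beyond in replicate 1. The same values were 181 and 111 bp in replicate 2. Whole domains were spanned by 106 and 122 H3K4me2 peaks.

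The position changed with the rank of the H3K4me2 peak. Of the peaks ranked 1 to 100 by −log10 q, 71% were outside every domain in replicate 1 and 72% in replicate 2, and 4% and 5% were inside. Of these highest peaks, 55 also met a peak of the short FiT-seq H3K27Ac list. Peaks ranked 101 to 1000 were inside in 39.9% and 34.8% of cases, and 34 of them met that list. From rank 8001 to 10000, the inside share was 66.8% and 61.4%, and none met it. The edge share fell with rank, from 28.7 and 29.0% at ranks 101 to 1000 to 10.9 and 11.0% beyond rank 10000. The median H3K4me2 peak width fell between the same groups from 358 to 197.5 bp, and its part was not tested. The outside share was 20.35 and 23.7% at ranks 8001 to 10000 and 24.3 and 27.5% beyond rank 10000. Leaving out all 102 H3K4me2 peaks that met the FiT-seq H3K27Ac list gave 58.1% inside, 17.4% at an edge and 24.5% outside as means of both replicates.

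**Figure D1:**
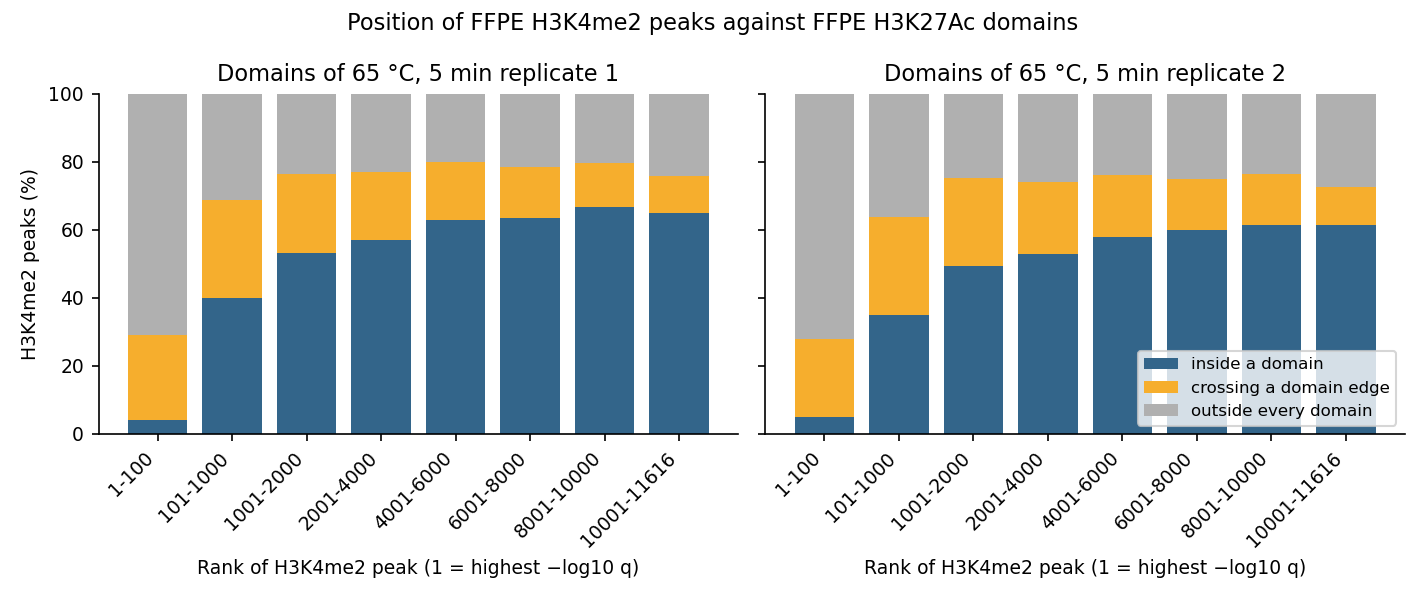
Share of H3K4me2 peaks (percent, y axis) inside a domain, crossing a domain edge or outside every domain, by the rank of the peak (x axis, 1 is the highest −log10 q), for the domains of each replicate. The outside share stands at 71 and 72% in the 100 highest peaks and between 20.2 and 36.1% in every later group.

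Regions that the naming rule gave show this contrast. The highest peak that was inside in both replicates, among peaks that met no FiT-seq H3K27Ac peak, was chr17:3084070-3084571. It had a −log10 q of 59.9, was ranked 53 among H3K4me2 peaks, and lay in domains of 2047 and 1348 bp. The next was chr11:3023774-3024257 at rank 101, in domains of 1476 and 795 bp. The fourth inside peak, chr1:90173049-90174171, was 1123 bp wide and lay in domains of 6801 and 6249 bp. Among peaks outside in both replicates, chr4:70039069-70039393 reached a −log10 q of 153 at a distance of 74019 bp and 74058 bp from the nearest domain. The peak chr12:68160139-68160901 reached 150 and was 1885698 and 1885803 bp away. All 5 named outside peaks met a fresh frozen H3K27Ac peak, as did 23.2% of all 2394 peaks that were outside in both replicates. Over all 11616 H3K4me2 peaks this share was 70.2%. From the highest named outside peak down, the fresh frozen peaks met were ranked 774, 6, 14, 106 and 1879 in their own list. The input library was not analysed, so whether reads also pile up at these sites without an antibody was not tested. Of the other FiTAc-seq lists, chr4:70039069-70039393 met 1, and the rest of the named outside peaks met 0. The edge set held chr8:20019724-20020147, 424 bp wide with a −log10 q of 68.0, on domains of 769 and 832 bp.

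H3K4me2 peaks outside the domains fell into a near and a far group. In replicate 1, 764 (6.58% of all H3K4me2 peaks) were within 1000 bp of a domain and 1924 (16.6%) were beyond. In replicate 2 these were 923 (7.95%) and 2141 (18.4%). Over all outside peaks, the median distance to the nearest domain was 16678 bp and 16281 bp, and 378 and 401 peaks were over 100 kb away.

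Other lists held H3K27Ac at a minority of the peaks that were outside in both replicates. Of these 2394, 555 (23.2%, 21.5 to 24.9%) met a peak of the whole fresh frozen H3K27Ac list. A peak of the FiTAc-seq libraries made at 50 °C with 40 min and at 65 °C with 40 min met 173 (7.23%) and 150 (6.27%) of them, and one of the library made at 50 °C with 5 min met 17 (0.71%). Of the 5925 peaks inside in both replicates, 5225 (88.2%, 87.3 to 89.0%) met fresh frozen H3K27Ac. The 1067 peaks at an edge in both stood between, with 816 (76.5%, 73.8 to 78.9%). With those 4 lists together, 27.7% of outside peaks, 92.6% of edge peaks and 99.1% of inside peaks met H3K27Ac. Over all 11616 H3K4me2 peaks, 70.2% met fresh frozen H3K27Ac and 81.4% met any of the 4 lists. For the libraries at 50 °C with 40 min, 65 °C with 40 min and 50 °C with 5 min, it was 69.7, 68.6 and 48.9%.

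Seen from the domains, about 1 in 5 met H3K4me2. A domain met H3K4me2 when it shared at least 1 bp with a peak. This held for 7371 of 34763 domains (21.2%) in replicate 1 and for 7110 of 32003 (22.2%) in replicate 2, or 21.7% ± 0.72 (SD, n = 2). Each listed H3K27Ac peak taken by itself, with no merging, gave 13.4%. Domains that both replicates shared met H3K4me2 in 28.7 and 27.6% of cases, and domains found in 1 replicate only in 2.96 and 2.11%. The latter were narrow, with median widths of 210 and 198 bp.

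The share of domains with H3K4me2 rose with width and then fell. Classes of width hold their lower bound and not their upper bound. Below 500 bp, 4.59% of replicate 1 domains and 5.94% of replicate 2 domains met a peak, and from 500 to 1000 bp 21.2 and 23.0% did. The share was 36.7 and 37.4% from 1000 to 2000 bp and 37.8 and 37.5% from 2000 to 4000 bp. It then fell to 25.5 and 25.2% from 4000 to 8000 bp. At 8000 bp or more, 72 of 410 domains (17.6%, 14.2 to 21.5%) and 49 of 340 (14.4%, 11.1 to 18.5%) met H3K4me2. Against these, the share over all domains was 21.2 and 22.2%.

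The fall was larger than the spread between the H3K27Ac replicates, which holds no variation of H3K4me2, since that mark had 1 library. From 1000 to 2000 bp to at least 8000 bp, a contrast chosen after the data were seen, the share fell by 21.1 percentage points ± 2.71 (SD, n = 2). The contrast stood at −33.0 points without merging. Domains of the FiTAc-seq library made at 50 °C with 5 min gave −36.3, but only 51 of them reached 8000 bp. A contrast that took in both the rise and the later fall depended on the threshold. The rise by itself was not recomputed at other thresholds. Domains of at least 4000 bp exceeded those under 1000 bp by 13.4 points ± 1.49 (SD, n = 2). With only peaks of a −log10 q of at least 5 in all lists this was 1.57 points, and with the replicates' peaks merged into shared domains it was 8.64.

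Per base, H3K4me2 was sparse in wide domains, although a wide domain offers more bases to meet. H3K4me2 peaks covered 8.47 and 8.42% of the bases of domains of 1000 to 2000 bp. They covered 4.63 and 4.58% at 2000 to 4000 bp, 1.37 and 1.31% at 4000 to 8000 bp, and 0.402 and 0.318% at 8000 bp or more. In both replicates, each of the 19 chromosomes had a larger share of bases covered in domains of 1000 to 2000 bp than in domains of at least 4000 bp.

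Fresh frozen H3K27Ac did not follow the same course. Its 11616 highest peaks, as many as the H3K4me2 list holds, met 43.2 and 46.1% of domains of 1000 to 2000 bp. They met 58.6 and 59.6% at 2000 to 4000 bp, 59.3 and 60.9% at 4000 to 8000 bp, and 60.7 and 56.5% at 8000 bp or more. With these peaks the contrast between at least 8000 bp and 1000 to 2000 bp was 13.9 points upward, the reverse of the 21.1 points downward of H3K4me2. Bases under fresh frozen peaks also thinned in wide domains, from 22.2 and 24.0% at 1000 to 2000 bp to 5.61 and 5.30% at 8000 bp or more. Part of the thinning per base was therefore seen with H3K27Ac too.

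**Figure D2:**
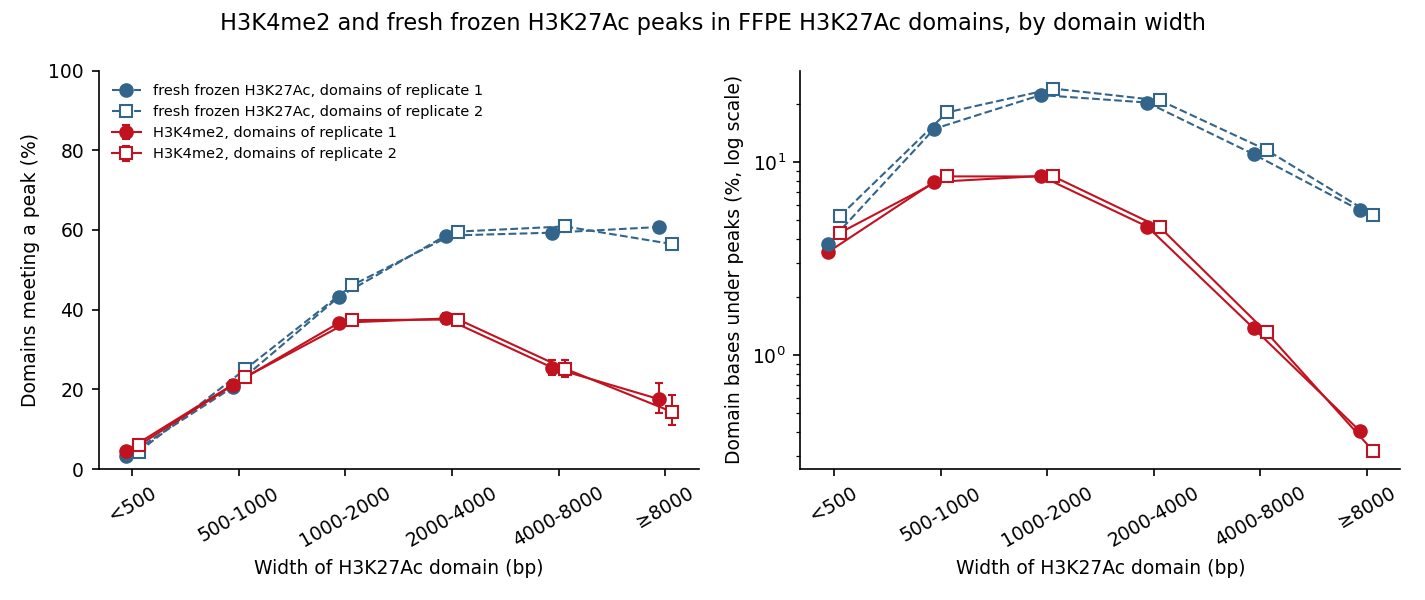
Left, share of domains meeting a peak (percent) by domain width (bp), for H3K4me2 and for the 11616 highest fresh frozen H3K27Ac peaks, with Wilson 95% intervals (counting error only) on the H3K4me2 points. Right, share of domain bases under peaks (percent, log scale). H3K4me2 falls to 17.6 and 14.4% of domains at 8000 bp or more, where fresh frozen H3K27Ac meets 60.7 and 56.5%.

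The same decline beyond 2000 bp appeared in domains of the other long H3K27Ac lists. In the FiTAc-seq list made at 50 °C with 40 min, 35.1% of domains of 1000 to 2000 bp and 13.5% of the 304 domains of at least 8000 bp met H3K4me2. In the list made at 65 °C with 40 min these were 35.4% and 12.3% of 252. The fresh frozen list had 1 domain of 4000 bp or more, so its wide classes could not be compared.

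The 5 widest regions held no H3K4me2 peak. Peaks of both replicates were merged together at gaps of up to 500 bp, which gave 24639 regions with a peak of each, here called pair regions. The widest, chr15:58804816-58890996, spanned 86.2 kb with 28 replicate 1 and 38 replicate 2 peaks and 18 fresh frozen H3K27Ac peaks, but 0 H3K4me2 peaks. The next, chr7:71038721-71075607, spanned 36.9 kb with 12 fresh frozen peaks and 0 H3K4me2 peaks. The other 3 named for width, chr15:77643307-77674699, chr8:73060200-73091325 and chr14:21913147-21943244, had 8 to 10 fresh frozen peaks and 0 H3K4me2 peaks each. Of the 100 widest pair regions, 16 met H3K4me2, against 7219 (29.3%) of all 24639.

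The share of inside peaks rose with domain width, and the part of size in this rise was not tested. Domains under 500 bp had median widths of 215 and 217 bp. The H3K4me2 peaks that met them had medians of 288 and 280 bp, so most were wider than the median domain of that class. Of the peaks that met a domain under 500 bp, 15.8% in replicate 1 and 14.7% in replicate 2 were inside it. That share was 55.0 and 54.4% at 500 to 1000 bp, 80.2 and 78.7% at 1000 to 2000 bp, and 98.8 and 96.2% at 8000 bp or more. The median −log10 q of the H3K4me2 peaks that met a domain fell over the same classes, from 6.39 and 6.54 below 500 bp to 4.96 and 5.03 at 8000 bp or more.

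Domains were then ranked by their highest H3K27Ac peak. Domains of high rank met H3K4me2 far more often than those of low rank. In 5 equal groups from highest to lowest rank, the shares were 54.7, 31.9, 12.1, 4.63 and 2.65% in replicate 1. In replicate 2 they were 52.8, 34.6, 14.3, 5.92 and 3.37%. The 11616 highest fresh frozen H3K27Ac peaks showed a steeper order, with 85.0, 38.4, 10.4, 2.95 and 1.57% in replicate 1 and 84.3, 44.5, 14.1, 4.31 and 2.05% in replicate 2, so the gradient was not particular to H3K4me2. High-ranked domains were also wide, with a median of 2622 and 2651 bp in the highest group against 204 and 204 bp in the lowest.

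The very highest domains broke this order. Of domains ranked 1 to 100, 34.3% (25.9 to 43.8%) in replicate 1 and 36.0% (27.3 to 45.8%) in replicate 2 met H3K4me2. The share was 41.6 and 37.0% at ranks 101 to 500, 48.1 and 44.9% at 501 to 1000, 56.5 and 54.0% at 1001 to 2000, and 59.0 and 56.9% at 2001 to 4000. The highest fresh frozen H3K27Ac peaks met 94.3 and 93.0% of the domains ranked 1 to 100. They met 88.4 and 87.0% of those ranked 2001 to 4000. The median width of the domains fell over these ranks, from 6605 and 6485 bp to 2579 and 2505 bp.

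Rank and width were partly separated by ranking domains within each width class. Width still fell with rank within a class. At 2000 to 4000 bp the median width was 2864 and 2888.5 bp in the highest of 5 equal groups and 2401 and 2418 bp in the lowest. At 1000 to 2000 bp, 73.2 and 71.7% of the highest of 5 equal groups met H3K4me2 and 6.81 and 8.21% of the lowest. At 2000 to 4000 bp these were 64.6 and 59.3% against 5.83 and 8.11%, a difference of 55.0 points ± 5.35 (SD, n = 2). The highest fresh frozen H3K27Ac peaks met 97.5 and 95.5% of the highest group there and 10.9 and 9.99% of the lowest. The H3K4me2 difference was 28.7 points with only peaks of a −log10 q of at least 5. At 4000 to 8000 bp the order was flatter, with 33.4 and 29.1% in the highest group, 35.3 and 35.4% in the next and 7.16 and 8.99% in the lowest. At 8000 bp or more no group stood above 30.5%. Its highest group met H3K4me2 in 17.1 and 20.6% of cases and its lowest in 6.10 and 7.35%, with intervals that overlapped in both replicates. The highest fresh frozen peaks kept their order in that class, with 85.4 and 85.3% in the highest group and 23.2 and 20.6% in the lowest.

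**Figure D3:**
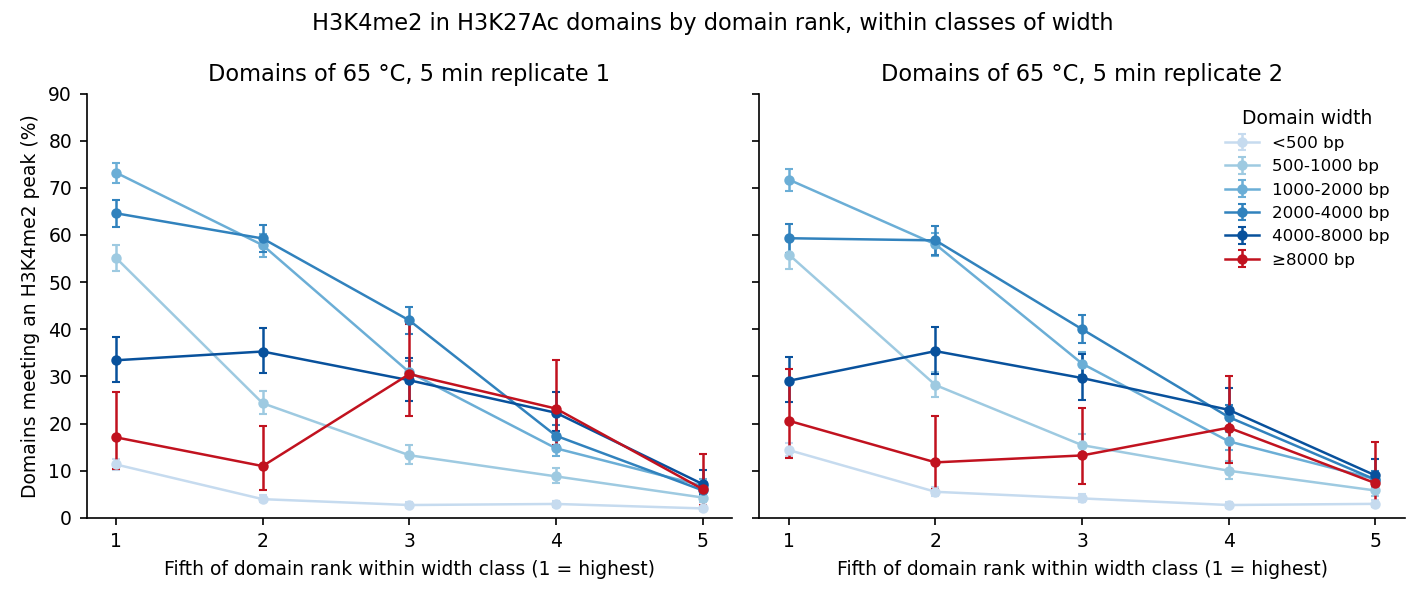
Share of domains meeting an H3K4me2 peak (percent, y axis) by rank group within each width class (x axis, 1 is the highest of 5 equal groups), with Wilson 95% intervals (counting error only). The share falls steeply with rank at 1000 to 2000 bp, from 73.2 to 6.81% in replicate 1, and stays at or below 35.4% in both widest classes.

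Named regions of high rank were mixed. The pair region of highest mean rank, chr7:38967728-38975277, was ranked 1 and 2 and held 1 H3K4me2 peak of 1538 bp, chr7:38968263-38969800, which covered 20.4% of it. The next, chr11:98632494-98639385, was ranked 3 and 1, was 6892 bp wide and held none, with 3 fresh frozen peaks. The region chr11:86389645-86403959, ranked 4 in both replicates, also held none. The regions chr8:96908386-96917584 and chr17:34253629-34261296 held 1 H3K4me2 peak each, of 183 and 228 bp. Of the 100 pair regions of highest mean rank, 33 met H3K4me2. Of the 2857 pair regions of at least 4000 bp, 748 (26.2%) did. Those without it included chr17:46991388-46995911, ranked 9 and 5, and chr2:27526868-27550238, ranked 6 and 14 and 23.4 kb wide.

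Few domains held more than 1 H3K4me2 peak. Of the pair regions, 5695 held 1, 1413 held 2 and 111 held 3, the most seen. Median widths were 1720, 1891 and 2188 bp for these, and 1426 bp for the 17420 with none. One with 3, chr1:66861161-66864851, was 3691 bp wide and ranked 1392 and 648. Its H3K4me2 peaks began 1507, 1964 and 3257 bp from its start and together covered 17.1% of it.

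Within domains, H3K4me2 lay farther from the centre than the highest H3K27Ac peaks of other libraries. Relative position was taken as the distance of a peak's midpoint from the domain centre, 0 at the centre and 1 at an edge, and even placement gives a median of 0.5. In domains of at least 2000 bp the median for H3K4me2 was 0.42 in replicate 1 (3233 midpoints) and 0.42 in replicate 2 (2933 midpoints). The 11616 highest fresh frozen H3K27Ac peaks gave 0.30 and 0.31. The 11616 highest peaks of the other replicate gave 0.25 and 0.22. H3K4me2 exceeded fresh frozen H3K27Ac by 0.112 ± 0.005 (SD, n = 2). The lists were matched in number and not in peak width or height. H3K4me2 was used whole, and the H3K27Ac lists were cut to their highest peaks. All 47238 fresh frozen peaks gave 0.38 and 0.39. Median peak widths over whole lists were 242 bp for H3K4me2, 346 bp for fresh frozen H3K27Ac and 354 and 353 bp for replicates 1 and 2. A wide peak within a domain has its midpoint farther from the edges, and the domains were themselves built from H3K27Ac peaks. The part of peak width in this difference was not tested.

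The size of this difference rested on the list set beside H3K4me2. Against all 47238 fresh frozen peaks, a choice made after the data were seen, it was 0.032. In domains of at least 4000 bp it was 0.053, and against the other replicate 0.185. The sign was the same in each of these. The value also moved with the rank of the H3K4me2 peak. The medians were 0.39 and 0.41 for ranks up to 2000, 0.41 and 0.41 for ranks 2001 to 6000, and 0.43 and 0.42 beyond rank 6000. In replicate 1 this range was wider than the excess over all fresh frozen peaks.

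**Figure D4:**
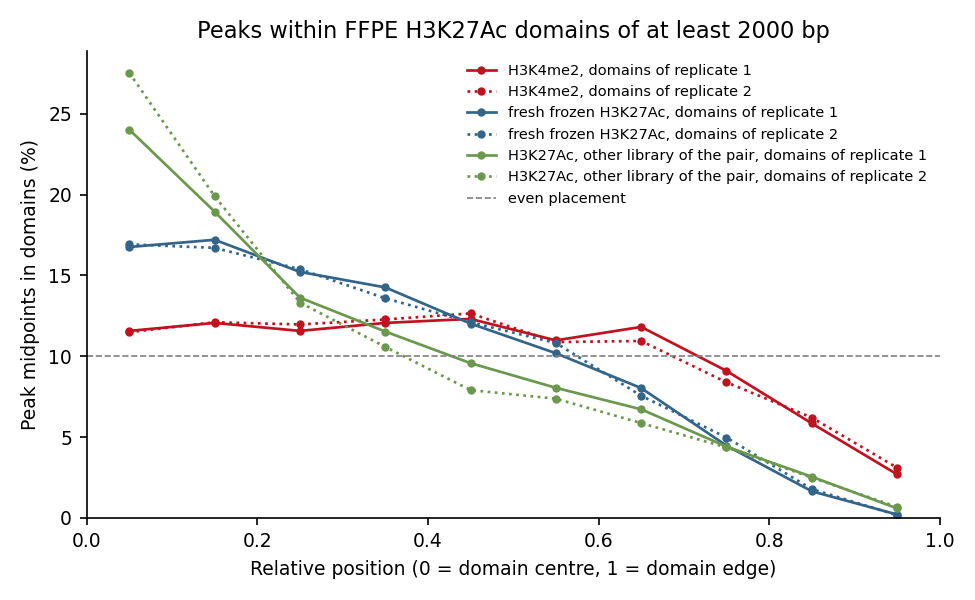
Share of peak midpoints (percent, y axis) in 10 bins from the centre (0) to the edge (1) of domains of at least 2000 bp, for H3K4me2, the highest fresh frozen H3K27Ac peaks and the highest H3K27Ac peaks of the other replicate, with the share of even placement as a dashed line. H3K4me2 stays between 10.9 and 12.6% per bin up to 0.7, whereas fresh frozen H3K27Ac falls from 16.8 and 16.9% in the central bin.

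The contrast with H3K27Ac was wider in domains of 1000 to 2000 bp. There the median relative position of H3K4me2 was 0.52 in both replicates, against 0.26 and 0.28 for the highest fresh frozen peaks, a difference of 0.252 ± 0.011 (SD, n = 2). Against all fresh frozen peaks the difference was 0.119 ± 0.010 (SD, n = 2). H3K4me2 midpoints were a median of 353 and 363 bp from the midpoint of the domain's highest H3K27Ac peak. The highest fresh frozen peaks were 153 and 147 bp from it, and all fresh frozen peaks 241 and 240 bp. In domains of at least 2000 bp the order depended on the list. There H3K4me2 was 519 and 538 bp from that midpoint, the highest fresh frozen peaks 368 and 365 bp, and all fresh frozen peaks 568 and 580 bp.

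In the widest domains H3K4me2 lay toward the ends. At 8000 bp or more its median relative position was 0.66 in replicate 1 (82 midpoints) and 0.70 in replicate 2 (53 midpoints). Of these midpoints, 74.4% (64.0 to 82.6%) and 77.4% (64.5 to 86.5%) were nearer to an edge than to the centre. The highest fresh frozen peaks gave 0.54 and 0.54 there, with 55.8 and 55.4% nearer to an edge. The H3K4me2 midpoints lay a median of 1629 and 1547 bp from the edge, so most were not at the boundary itself.

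Around the boundaries, H3K4me2 and H3K27Ac had different profiles. In domains of 1000 to 2000 bp there were 320 and 322 H3K4me2 midpoints per Mb in the 500 bp inside the boundary and 262 and 260 per Mb farther in. The 11616 highest fresh frozen H3K27Ac peaks had the opposite order. They had 209 and 242 per Mb in the outer 500 bp and 593 and 600 per Mb farther in. The size of this contrast rested on the list. Within 500 bp of an edge lay 73.2 and 73.5% of the H3K4me2 midpoints in these domains. This held for 44.1 and 47.5% with the highest fresh frozen peaks and for 60.5 and 62.7% with all fresh frozen peaks. Just outside, in the first 500 bp, H3K4me2 had 42.5 and 51.2 midpoints per Mb and the highest fresh frozen peaks 1.82 and 3.16. From 500 to 1000 bp outside, H3K4me2 had 2.96 and 4.33 per Mb. The lists differed in peak width. In these domains, 31.8 and 32.2 H3K4me2 peaks per 100 kb covered 8.47 and 8.42% of bases. The highest fresh frozen peaks, at 32.8 and 35.4 per 100 kb, covered 22.2 and 24.0%. A wide peak within a domain has its midpoint farther from the boundary, and the part of peak width in these profiles was not tested.

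The order of H3K4me2 at 1000 to 2000 bp did not hold in wider domains. At 2000 to 4000 bp, H3K4me2 had 129 and 125 midpoints per Mb in the outer 500 bp and 200 and 203 per Mb in the next 500 bp. At 4000 bp or more it had 25.3 and 25.7 per Mb in the outer 500 bp, 49.2 and 49.9 in the next 500 bp and 66.9 and 66.9 from 1000 to 2000 bp inside. The highest fresh frozen H3K27Ac peaks had 16.6 and 19.4, 103 and 108, and 194 and 199 per Mb in the same intervals.

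**Figure D5:**
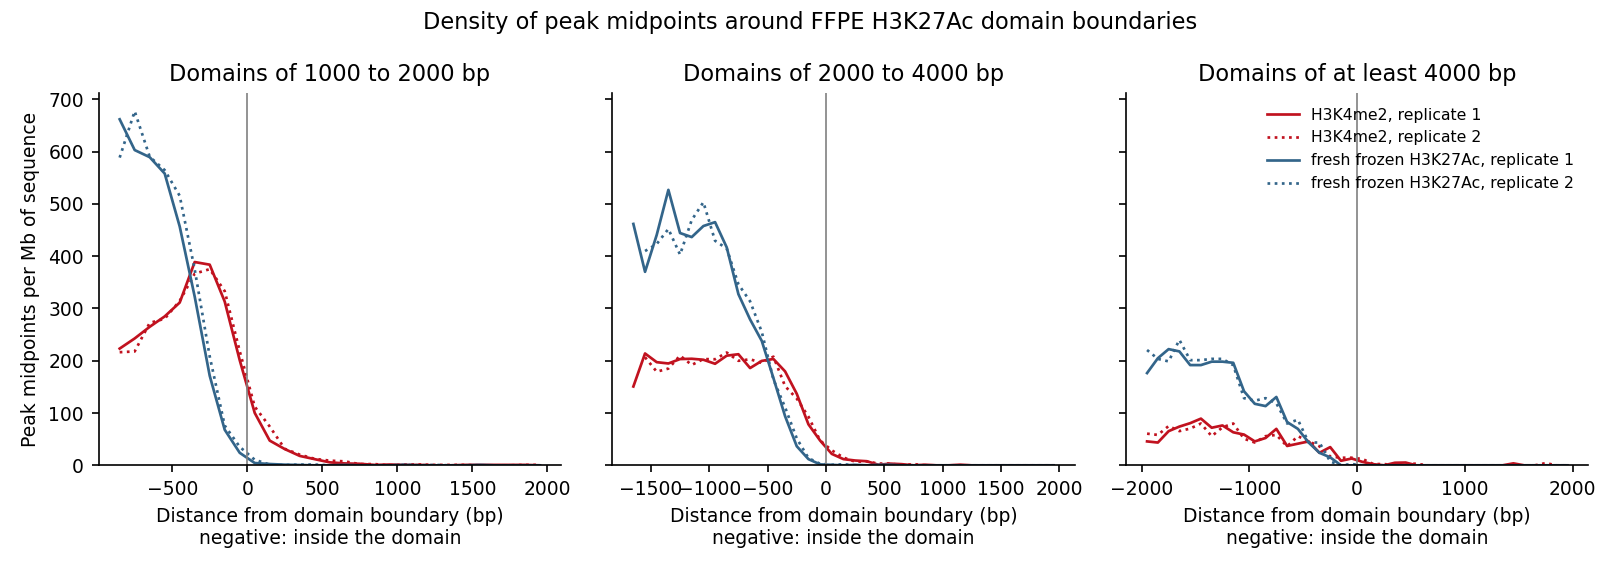
Peak midpoints per Mb of sequence (y axis) by distance from the nearest domain boundary (bp, x axis, negative inside the domain) in steps of 100 bp, for H3K4me2 and the 11616 highest fresh frozen H3K27Ac peaks, in 3 classes of domain width. Lines stand for the domains of each replicate. In domains of 1000 to 2000 bp the H3K4me2 line peaks in the outer 500 bp, where fresh frozen H3K27Ac is still rising toward the centre.

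Where a domain of 1000 to 2000 bp held 2 H3K4me2 midpoints, these mostly lay on opposite sides of its centre. This held for 470 of 577 such domains (81.5%) in replicate 1 and 401 of 516 (77.7%) in replicate 2. The highest H3K27Ac peak's midpoint lay between them in 76.1 and 74.2%. The midpoints of a pair were a median of 724.5 and 707.5 bp apart, in domains with median widths of 1527 and 1509.5 bp. A pair so far apart has little room on 1 side of the centre. The share that this spacing alone would give was not computed. Pairs of midpoints of the highest fresh frozen H3K27Ac peaks were on opposite sides in 94.2 and 95.7% of their domains. With all fresh frozen peaks this was 90.5 and 92.0%, so the arrangement was not particular to H3K4me2. In domains of at least 2000 bp, H3K4me2 midpoints lay on opposite sides in 273 of 516 domains (52.9%) and 274 of 477 (57.4%), against 66.8 and 69.1% for the highest fresh frozen peaks.

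H3K4me2 seldom fell in the gaps that merging had closed. Such gaps made up 10.6% of domain bases in replicate 1 and 11.2% in replicate 2. They held 2.13 and 2.92% of the H3K4me2 midpoints within domains, and 0.712 and 0.874% of those of the highest fresh frozen H3K27Ac peaks.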

How the data were processed

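Per the submitters' processing notes, BWA aligned the reads to mm9 and MACS2 called the peaks. No version, threshold or control is named, so these are not given in the sources used here. The labels' protocols name 2 library kits without assigning them to libraries. The authors deposited 1 peak list for each of 9 libraries, and the input library was not analysed here. The fifth column of a deposited list was taken as −log10 q, since it starts near 2 in the longer lists, and it was used to rank and filter peaks of the same list only.

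Of the 9 lists, 8 were used. Peaks on chromosomes 1 to 19 were kept, and starts are 1-based. Shares, densities and positions of fresh frozen H3K27Ac in domains used its 11616 highest peaks, unless all fresh frozen peaks are named. The other replicate's list was reduced in the same way. Shares of H3K4me2 peaks that met another list used that list whole. The code for classes and relative position was checked on simulated peaks of 1 width on replicate 1 domains, and recovered their known places. Inside and edge peaks were set on domains of at least 2000 bp. Narrower domains, other peak widths and peaks that span a domain were not covered. Wilson 95% intervals cover counting error, and neighbouring peaks are not independent.

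The members, the lists and the rules were chosen with earlier results of these data known. Named regions were pair regions: the 5 widest, the 5 of highest mean rank, 5 with the most H3K4me2 peaks (ties in genome order), and the 5 of highest mean rank among those of at least 4000 bp without H3K4me2. Added to these were the 5 highest H3K4me2 peaks per class in both replicates, without those that met a FiT-seq H3K27Ac peak. Not every region so named is printed. Alternatives covered the merging gap, the threshold, the overlap, the edge rule, the domain list and the lists compared. The tools were matplotlib 3.10.9, scipy 1.17.1, pandas 2.3.3 and numpy 2.4.6 under Python 3.11.15.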

Additional observations from a re-analysis of the deposited data

How the results depend on the processing

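Of 91 alternative values for 9 results, 18 left out a replicate and lie within 1 SD by construction. Of the other 73, 30 stayed within 1 SD of the 2 replicates, 42 moved and 1 reversed. The cause of these shifts was not tested. With H3K27Ac peaks as listed (gap of 0 bp), 53.0% of H3K4me2 peaks were inside and 22.0% at an edge, 13.4% of domains met H3K4me2, the rank contrast at 2000 to 4000 bp was 40.1 points, the relative position was 0.43 and its excess over fresh frozen 0.14, and the contrast between at least 8000 bp and 1000 to 2000 bp was −33.0 points. With a gap of 1000 bp, 25.3% of domains met H3K4me2, the relative position was 0.44, the excess 0.0998 and the width contrast −17.2 points. With only peaks of at least 5, 51.8% were inside, 19.8% at an edge and 28.4% outside, 16.5% of domains met H3K4me2, the contrast of at least 4000 bp with under 1000 bp was 1.57 points, the rank contrast 28.7 points, the relative position 0.43 and the excess 0.15. With 50% of the H3K4me2 peak required within the domain, 11.3% were at an edge and 31.1% outside, 20.1% of domains met H3K4me2 and the contrast of at least 4000 bp with under 1000 bp was 15.6 points. With domains of both libraries merged together, 64.3% were inside and 11.9% at an edge, 29.3% of domains met H3K4me2, the contrasts were 8.64, 61.3 and −15.8 points, the relative position was 0.41 and the excess 0.11. Merging H3K4me2 peaks within 500 bp gave 20.8% at an edge, a relative position of 0.42 and an excess of 0.12. The midpoint rule for edges gave 47.6% inside, 30.2% at an edge and 22.2% outside. Domains of at least 4000 bp gave a relative position of 0.45 and an excess of 0.053. The excess was 0.185 over the other replicate and 0.032 over all fresh frozen peaks. The contrast of at least 8000 bp with 1000 to 2000 bp was −36.3 points on the domains made at 50 °C with 5 min. It reversed to 13.9 points when fresh frozen H3K27Ac took the place of H3K4me2.

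Without either replicate, the inside share was 55.5 to 59.8%, the rank contrast 51.2 to 58.8 points, and the contrast at 8000 bp −23.0 to −19.1 points. This last contrast with its alternatives, and the list of all fresh frozen peaks, were chosen after seeing the data. No paired analysis was possible because H3K4me2 has 1 library and no test was made. Depth is unknown, so a domain without a listed H3K4me2 peak is not shown to lack the mark.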

Other observations

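Chromosome X was kept out of the comparisons and held 129 H3K4me2 peaks. Of these, 33 were inside an H3K27Ac domain, 26 at an edge and 70 (54.3%) outside in replicate 1. In replicate 2, 21 were inside, 30 at an edge and 78 (60.5%) outside. H3K4me2 met 58 of 529 domains (11.0%) and 50 of 501 domains (9.98%) on that chromosome. On chromosomes 1 to 19 taken singly, the outside share ran from 18.5 to 28.4% in replicate 1 and from 22.2 to 33.8% in replicate 2, and the share of domains meeting H3K4me2 did not fall below 18.9 and 20.0%. The difference was not tested, since chromosome X is 1 chromosome of 1 H3K4me2 library.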
